A study of Phlebiopsis gigantea with 8 samples.

Results

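The copper radical oxidases of the white-rot fungus *Phlebiopsis gigantea* are described here from transcript levels in mycelium grown on pine wood or glucose. Members were the gene models whose deposited function name contains "copper radical oxidase" or the word CRO, or whose InterPro description names glyoxal oxidase, a rule that reads annotation and no measured value. There were 7 of them among 11892 gene models, and each is named Phlgi1 with a protein number. RNA came from 3 cultures on ground loblolly pine wood that had not been extracted (NELP), 3 cultures on the same wood after acetone extraction (ELP) and 2 cultures on glucose as the only carbon source (Glc). All 8 cultures were in 250 ml of basal salts and were harvested on day 5, and each gave 1 library. The NELP wood had itself been wetted with acetone and dried, so both woods had met the solvent, and the labels give 2.5 g of wood per culture whereas the study's methods give a smaller mass. Values are RPKM, reads scaled by gene length and by library size, as the authors deposited them, so levels of different genes can be set side by side.

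Copper radical oxidases carry a copper ion beside a radical on a modified tyrosine. They oxidize simple aldehydes or alcohols and pass the electrons to oxygen, which yields H2O2. The best known member, glyoxal oxidase (GLX) of *Phanerochaete chrysosporium*, is secreted, and its H2O2 serves the extracellular heme peroxidases that attack lignin. White-rot fungi hold several further members, named cro1 to cro6 after those of *P. chrysosporium*, and their substrates are less well known.

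By deposited name the 7 models comprised a glyoxal oxidase (Phlgi1_380490), a pair of cro2-like genes (Phlgi1_128606 and Phlgi1_19348), and a cro1-like (Phlgi1_453167), a cro5-like (Phlgi1_513029) and a Cro6-like gene (Phlgi1_327975). Phlgi1_118353 was named a copper radical oxidase with no type. The N-terminal glyoxal oxidase domain PF07250 was annotated once in 5 of them. Phlgi1_513029 was annotated instead with 4 hits of the WSC domain PF01822, a domain linked to carbohydrate binding. Phlgi1_118353 had no domain annotation, and the study describes it as the front end of a gene model split by a gap, with Phlgi1_71528 as its far end. In RefSeq's table of the assembly Phlgi1, which names no scaffold for them, gene spans were 2959 bp for Phlgi1_128606 (59684 to 62642), 2531 bp for Phlgi1_19348 (14332 to 16862), 2260 bp for Phlgi1_380490 (65759 to 68018), 2693 bp for Phlgi1_453167 (24216 to 26908), 3383 bp for Phlgi1_327975 (77544 to 80926) and 4704 bp for Phlgi1_513029 (107892 to 112595). The span of Phlgi1_118353 was 322 bp (126629 to 126950).

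The steps between the lowest RPKM values put the depth of NELP libraries at 10200000 to 18200000 mapped reads, that of ELP libraries at 5940000 to 7190000 reads, and that of Glc libraries at 7870000 and 14000000 reads. Every NELP library was therefore deeper than every ELP library. The Glc libraries resembled each other less than libraries of a wood medium did. Across tested genes 35.1% differed more than 2-fold between Glc 1 and Glc 2, and on the log2 scale a gene's SD had a median of 0.194 in NELP and 0.217 in ELP, against 0.506 in Glc. In the deposited values the median gene was higher on wood, with log2 fold changes of 0.54 for NELP and 0.60 for ELP relative to Glc. Rescaling each library by the median of its gene ratios brought these medians to -0.03 and -0.03, so changes of the members relative to Glc are given below on both scales, and for other genes the calls kept after rescaling are given. A single limma fit to log2(RPKM + 0.5) covered the 3 media and the 10999 genes whose mean reached 1 RPKM, and a gene passed at a Benjamini-Hochberg adjusted p under 0.05. Of the 7 members, 6 were tested, and Phlgi1_118353 fell below the minimum. With 3 cultures against 3 or 2, an exact permutation test of a single gene cannot give a p below 0.1, so none was used.

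Among the members the largest change in both wood media was the low level of the cro2-like gene Phlgi1_128606. Its transcripts stood at 178, 205 and 206 RPKM in the NELP libraries, at 145, 169 and 166 RPKM in the ELP libraries, and at 2590.2 and 826 RPKM in the Glc libraries. Every wood library lay far below both Glc libraries, and the Glc libraries differed from each other by 3.14-fold while those of a wood medium lay close together. The log2 fold change was -2.90 in NELP relative to Glc (standard error 0.42, adjusted p = 0.0057 by limma) and -3.19 in ELP relative to Glc (standard error 0.42, adjusted p = 0.0030 by limma). Of the 10999 genes tested, 85 had a change at least as low in NELP relative to Glc and 72 in ELP, Phlgi1_128606 included. After rescaling the changes were -3.50 (adjusted p = 0.0065) and -3.85 (adjusted p = 0.0034). It passed as lower in both comparisons under each of the 17 alternative settings, with log2 fold changes of -3.72 (without Glc 2) to -2.07 (without Glc 1) in NELP, and -4.01 to -2.37 in ELP under the same omissions.

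**Figure D1:**
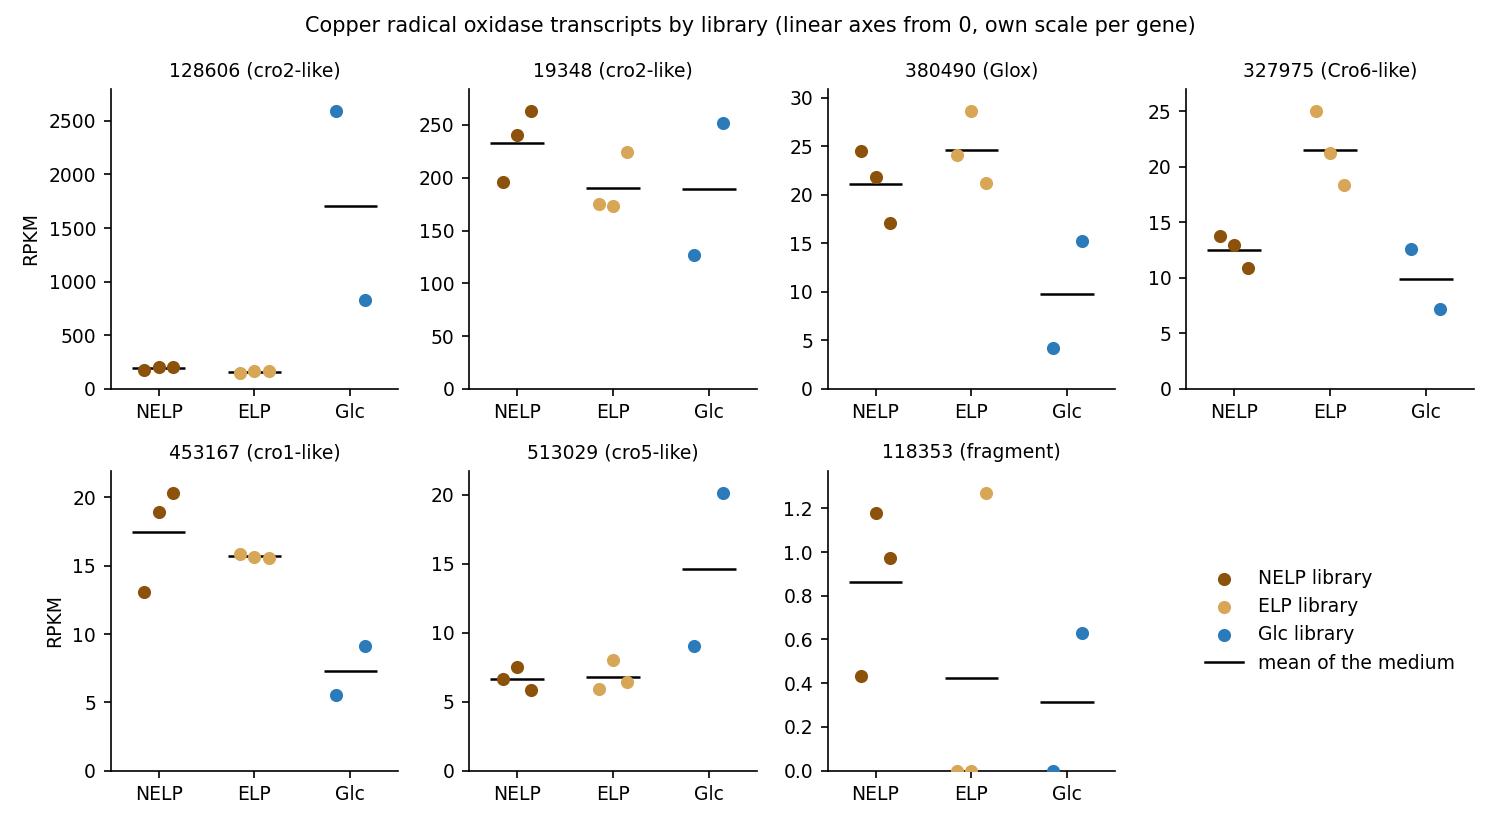
RPKM of each copper radical oxidase (vertical axis, linear from 0, with its own scale in each panel) in NELP, ELP and Glc; points are libraries and the black lines are the means of a medium. Phlgi1_128606 stands at 826 and 2590.2 RPKM in Glc and at 206 RPKM or less on wood, while the second cro2-like gene, Phlgi1_19348, has overlapping values in all media.

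The second cro2-like gene, Phlgi1_19348, had no such difference. It measured 196, 240.4 and 263 RPKM in NELP, 175, 173 and 224 RPKM in ELP, and 127 and 252 RPKM in Glc. The Glc libraries spanned almost the whole range of the wood libraries, so the media overlapped. Its log2 fold change was 0.37 in NELP relative to Glc (95% interval -0.36 to 1.11, adjusted p = 0.38 by limma) and 0.08 in ELP relative to Glc (95% interval -0.65 to 0.82, adjusted p = 0.86 by limma), and neither passed. After rescaling these estimates were -0.23 and -0.58, and without Glc 1 they were -0.12 and -0.41. Without Glc 2 the NELP change was 0.86 and passed (adjusted p = 0.020), so no stable direction was found for this gene. Within a library the ratio of the cro2-like genes does not depend on how libraries are scaled. Phlgi1_128606 over Phlgi1_19348 gave 0.908, 0.852 and 0.783 in the NELP libraries, 0.830, 0.978 and 0.741 in the ELP libraries, and 20.4 and 3.28 in the Glc libraries. Thus Phlgi1_19348 was the higher of the pair in every wood library and Phlgi1_128606 in both Glc libraries. The sources used here do not say how reads that fit both genes were treated.

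The glyoxal oxidase gene Phlgi1_380490, whose counterpart in *P. chrysosporium* supplies H2O2 to lignin peroxidase, passed as higher in ELP alone. It had 24.5, 21.9 and 17.0 RPKM in NELP, 24.1, 28.6 and 21.2 RPKM in ELP, and 4.17 and 15.3 RPKM in Glc. All wood libraries lay above both Glc libraries, although Glc 2 came close to the lowest NELP library and was 3.66-fold above Glc 1. The log2 fold change was 1.54 in ELP relative to Glc (standard error 0.47, adjusted p = 0.031 by limma), which passed, and 1.32 in NELP relative to Glc (standard error 0.47, adjusted p = 0.062 by limma), which did not. The ELP call was lost without any 1 of the ELP libraries (adjusted p = 0.077, 0.090 and 0.057 without ELP 1, ELP 2 and ELP 3), without Glc 1 (0.074), without NELP 1 or NELP 2 (0.051 and 0.054), and with no filter on low values (0.053). Without Glc 2 the NELP change was 2.19 and passed (adjusted p = 0.00049). After rescaling the changes were 0.75 in NELP (adjusted p = 0.25) and 0.91 in ELP (adjusted p = 0.15).

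The cro1-like gene Phlgi1_453167 was the only member that passed as higher in both wood media. Its values were 13.0, 19.0 and 20.3 RPKM in NELP, 15.9, 15.7 and 15.6 RPKM in ELP, and 5.54 and 9.12 RPKM in Glc. No wood library overlapped a Glc library, and the ELP libraries were nearly equal. The log2 fold change was 1.21 in NELP relative to Glc (standard error 0.28, adjusted p = 0.018 by limma) and 1.09 in ELP relative to Glc (standard error 0.28, adjusted p = 0.018 by limma). The NELP call was lost without NELP 2 or NELP 3 (adjusted p = 0.068 and 0.056), and the ELP call without ELP 1, ELP 2 or Glc 1 (0.052, 0.054 and 0.0502). After rescaling the changes were 0.64 in NELP (adjusted p = 0.12) and 0.46 in ELP (adjusted p = 0.22), and neither passed.

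The Cro6-like gene Phlgi1_327975 was the member with the widest gap between the wood media. It had 13.8, 12.9 and 10.9 RPKM in NELP, 25.0, 21.2 and 18.4 RPKM in ELP, and 12.6 and 7.23 RPKM in Glc. Each ELP library lay above every NELP and Glc library, whereas NELP and Glc overlapped. It passed as higher in ELP relative to Glc (log2 fold change 1.12, standard error 0.28, adjusted p = 0.016 by limma) and did not pass in NELP relative to Glc (0.37, standard error 0.28, adjusted p = 0.32 by limma). The ELP call was lost without ELP 1 (adjusted p = 0.053), and without Glc 1 the NELP change was 0.75 and passed (adjusted p = 0.047). After rescaling the changes were -0.21 in NELP (adjusted p = 0.67) and 0.48 in ELP (adjusted p = 0.28).

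The cro5-like gene Phlgi1_513029, the member with WSC domains, ran the other way. It had 6.61, 7.51 and 5.87 RPKM in NELP, 5.93, 7.99 and 6.45 RPKM in ELP, and 9.03 and 20.1 RPKM in Glc. Both Glc libraries lay above all wood libraries, by little for Glc 1 and clearly for Glc 2. The log2 fold change was -0.97 in NELP relative to Glc (standard error 0.33, adjusted p = 0.056 by limma) and -0.95 in ELP relative to Glc (standard error 0.33, adjusted p = 0.0503 by limma), and neither passed. Without Glc 1 both passed, at -1.53 in NELP (adjusted p = 0.0054) and -1.51 in ELP (adjusted p = 0.0038). After rescaling it passed as lower in both, at -1.55 in NELP (adjusted p = 0.016) and -1.59 in ELP (adjusted p = 0.011).

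The split model Phlgi1_118353 was close to silent. It had 0.434, 1.18 and 0.972 RPKM in the NELP libraries, 0, 0 and 1.27 RPKM in the ELP libraries, and 0 and 0.631 RPKM in the Glc libraries. At the inferred depths these values equal 1, 4 and 4 reads on NELP, 0, 0 and 2 reads on ELP, and 0 and 2 reads on Glc, too few to compare media. Its proposed far end, Phlgi1_71528, had 0.352 RPKM in NELP 3 and 0.457 RPKM in Glc 2 and was listed at 0 in the other libraries.

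Counted together, in NELP relative to Glc 1 of the 6 tested members was higher (Phlgi1_453167) and 1 was lower (Phlgi1_128606), where 29.5% of all tested genes were higher and 3.67% were lower. In ELP relative to Glc 3 were higher (Phlgi1_380490, Phlgi1_327975 and Phlgi1_453167) and 1 was lower (Phlgi1_128606), where 37.3% of all tested genes were higher and 5.14% were lower. The median log2 fold change of the members was 0.37 in NELP and 0.58 in ELP, beside 0.54 and 0.60 over all tested genes. After rescaling 0 members were higher and 2 were lower in each comparison, Phlgi1_128606 and Phlgi1_513029. The corresponding shares of all genes after rescaling were 6.59% higher and 7.04% lower in NELP, and 10.7% higher and 11.5% lower in ELP. At an unadjusted p under 0.05 in the deposited values, 2 members were higher and 2 lower in NELP, and 3 higher and 2 lower in ELP. All tested genes at this threshold were 41.4% higher and 5.76% lower in NELP, and 45.6% higher and 7.27% lower in ELP. Counted by libraries that did not overlap, 2 members lay above Glc and 2 below in NELP, and 3 lay above and 2 below in ELP. Over all tested genes such a lack of overlap held for 49.7% above and 7.84% below in NELP, and for 51.4% above and 8.93% below in ELP. With weights by medium, or when only 2 media were fitted, Phlgi1_128606 was the only member that passed relative to Glc. NELP and ELP are set against the same Glc libraries, so their results are not independent of each other.

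**Figure D2:**
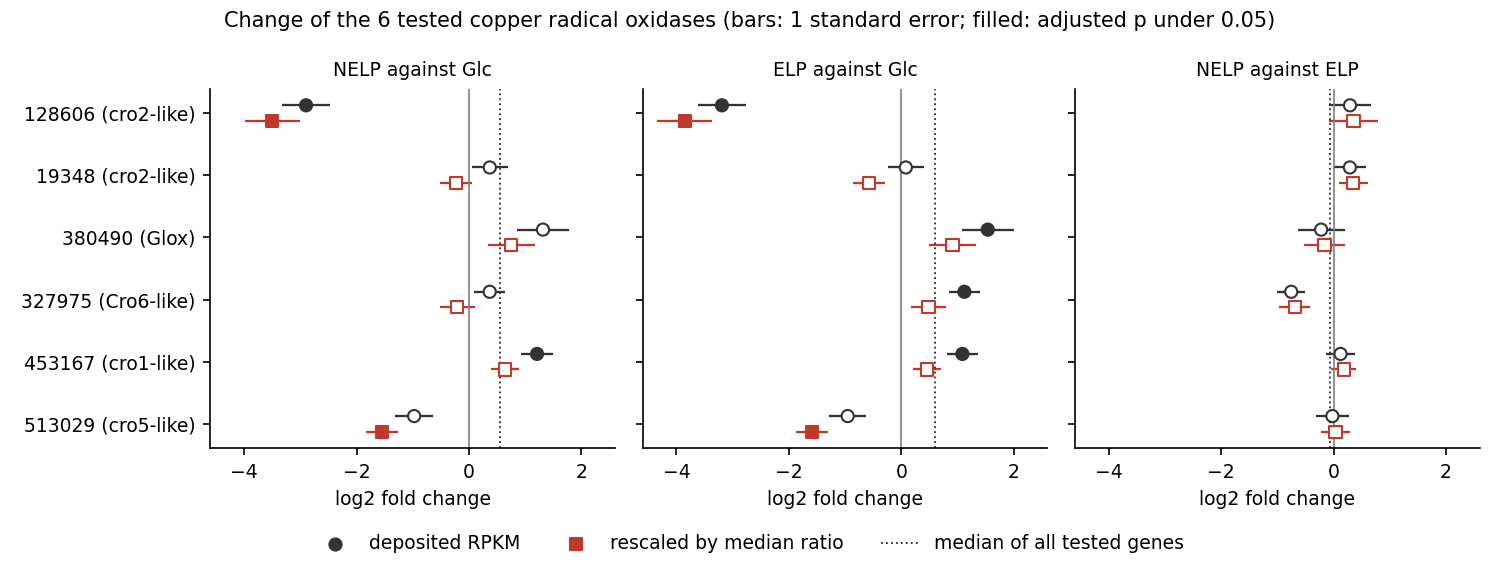
Log2 fold change (horizontal axis) of the 6 tested members in NELP relative to Glc, ELP relative to Glc and NELP relative to ELP, for deposited RPKM (circles) and after rescaling by median ratio (squares); bars are 1 standard error, filled symbols passed at an adjusted p under 0.05 by limma, and dotted lines mark the median of all tested genes. Phlgi1_128606 is lower on wood on both scales, whereas the higher calls of the Glox, cro1-like and Cro6-like genes hold only on the deposited scale.

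No member passed between NELP and ELP, the comparison that asks about the acetone-soluble extractives of pine. Limma called 0 of 6 members, and over all tested genes 0.00909% passed as higher and 0.0% as lower in NELP (0.0272% and 0.0% after rescaling, which also called 0 members). At an unadjusted p under 0.05 there was 1 member, Phlgi1_327975, with a log2 fold change of -0.75 in NELP relative to ELP (95% interval -1.33 to -0.18, adjusted p = 0.22 by limma). Of all tested genes 9.12% were lower and 7.23% higher at that threshold. This gene passed as lower in 4 of the 17 alternative settings, all of which leave out or down-weight Glc libraries. With NELP and ELP fitted alone an unadjusted p of 0.0025 by limma was enough to pass, so far more genes passed there than in the main fit. The shares of all tested genes that passed in these settings are not given here. The adjusted p was 0.038 in a fit of the NELP and ELP libraries alone, 0.026 with weights by medium, and 0.038 without Glc 1 or without Glc 2. Libraries of NELP and ELP did not overlap for Phlgi1_327975, which was lower in NELP, and for Phlgi1_128606, which was higher in NELP. Such a lack of overlap was seen in 22.1% of all tested genes in the lower direction and 16.7% in the higher one.

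For the other members the interval between the wood media included 0. The log2 fold change in NELP relative to ELP was 0.29 for Phlgi1_128606 (95% interval -0.59 to 1.17) and 0.29 for Phlgi1_19348 (95% interval -0.37 to 0.95). The glyoxal oxidase gene Phlgi1_380490 stood at -0.22 (95% interval -1.19 to 0.74). Phlgi1_453167 stood at 0.12 (95% interval -0.45 to 0.70) and Phlgi1_513029 at -0.02 (95% interval -0.71 to 0.67). These intervals use a spread shared with the Glc libraries. When only NELP and ELP were fitted, the standard error of Phlgi1_128606 was 0.14, against 0.38 with all media, and that of Phlgi1_380490 was 0.19, against 0.42, and neither gene passed there (adjusted p = 0.19 and 0.44).

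The order of the levels was led by the cro2-like pair in every medium. In NELP, Phlgi1_19348 (233 ± 33.9 RPKM, SD, n = 3) and Phlgi1_128606 (196 ± 15.7) came first, with overlapping libraries. They ranked 518 and 630 among all gene models. Far below followed Phlgi1_380490 (21.1 ± 3.77), Phlgi1_453167 (17.4 ± 3.87) and Phlgi1_327975 (12.5 ± 1.51), each overlapping the next, and then Phlgi1_513029 (6.67 ± 0.82), which lay apart.

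In ELP the order was Phlgi1_19348 (191 ± 29.1 RPKM, SD, n = 3), Phlgi1_128606 (160.2 ± 12.9), Phlgi1_380490 (24.6 ± 3.72), Phlgi1_327975 (21.6 ± 3.32), Phlgi1_453167 (15.7 ± 0.15) and Phlgi1_513029 (6.79 ± 1.07). Of these neighbours, only Phlgi1_380490 and Phlgi1_327975 overlapped. In Glc, Phlgi1_128606 came first (1708 ± 1247 RPKM, SD, n = 2), at rank 58 among all gene models, and Phlgi1_19348 second (189.5 ± 88.4), with no overlap. The next 4, Phlgi1_513029 (14.6 ± 7.83), Phlgi1_327975 (9.90 ± 3.77), Phlgi1_380490 (9.72 ± 7.85) and Phlgi1_453167 (7.33 ± 2.53), overlapped each other from neighbour to neighbour, so that their order in Glc is not resolved. Phlgi1_118353 was last in all media.

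The 7 members summed to 433, 508 and 524 RPKM in the NELP libraries, 391, 415 and 453 RPKM in the ELP libraries, and 2749 and 1130.5 RPKM in the Glc libraries. Both Glc libraries lay above every wood library. Phlgi1_128606 made up 39.3 to 41.2% of the sum in NELP and 36.7 to 40.7% in ELP, against 94.2% in Glc 1 and 73.1% in Glc 2. Without it the sums were 255, 303 and 318 RPKM in NELP, 246, 246 and 287 RPKM in ELP, and 158 and 304 RPKM in Glc, and the media overlapped. After rescaling the sums over all 7 averaged 451 in NELP, 372 in ELP and 2834 in Glc.

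**Figure D3:**
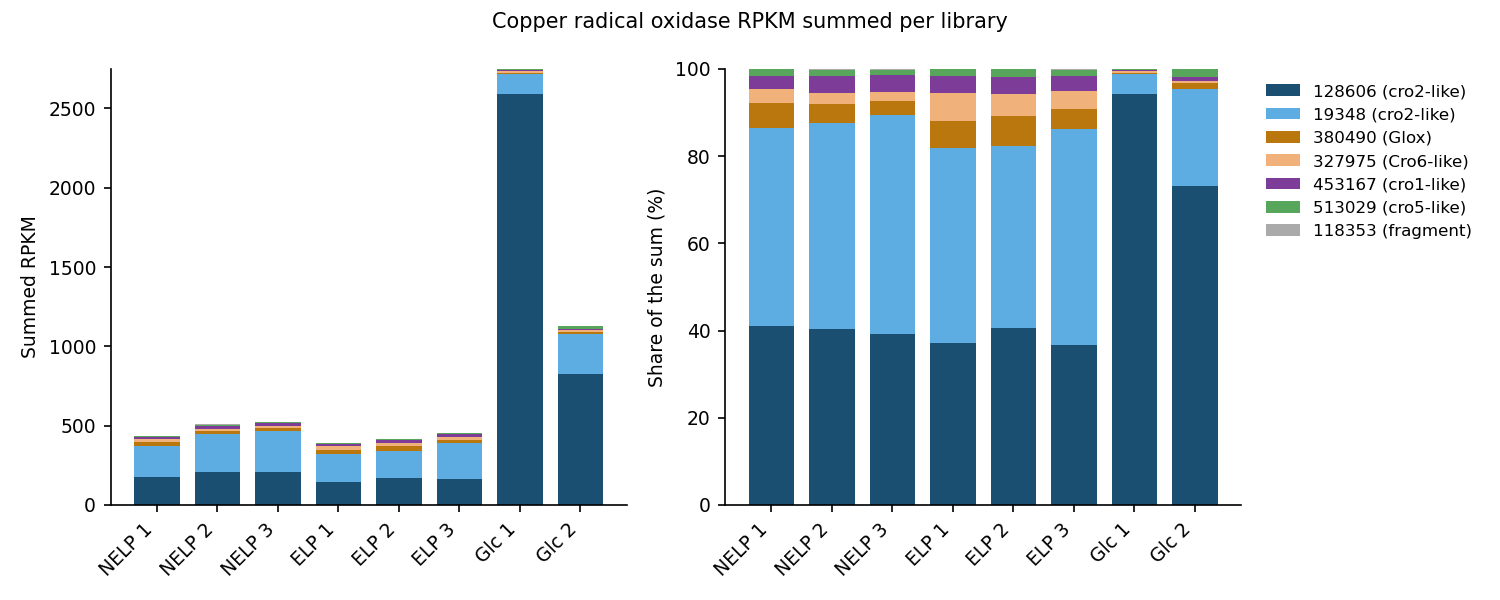
Stacked RPKM of the 7 copper radical oxidases in each library (left, linear axis from 0) and the share of each gene in that sum in percent (right). Phlgi1_128606 takes 94.2% and 73.1% of the sum in Glc 1 and Glc 2 and no more than 41.2% in any wood library, where Phlgi1_19348 takes a similar share.

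The Glc libraries also differed in the make-up of the family. Glc 1 had more Phlgi1_128606 than Glc 2 (3.14-fold) and more Phlgi1_327975 (1.74-fold). Glc 2 had more Phlgi1_380490 (3.66-fold), Phlgi1_513029 (2.23-fold), Phlgi1_19348 (1.98-fold) and Phlgi1_453167 (1.65-fold). A gap as large as that of Phlgi1_128606 on the log2 scale was seen in 15.6% of all tested genes, and one as large as that of Phlgi1_380490 in 13.7%. What set the Glc cultures apart was not tested.

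The wider set of enzymes that make or use H2O2 was described from 7 lists by protein number. They hold GMC oxidases (flavoenzymes that make H2O2), cellobiose dehydrogenase, and lignin, manganese, generic, dye-decolorizing and heme-thiolate peroxidases. Of these 25 genes 23 were tested. In NELP relative to Glc 10 were higher and 2 lower, and in ELP relative to Glc 12 were higher and 2 lower, with median log2 fold changes of 0.95 and 1.21. The shares over all tested genes were 29.5% higher and 3.67% lower in NELP, and 37.3% higher and 5.14% lower in ELP. After rescaling 4 were higher and 1 lower in NELP, and 4 higher and 2 lower in ELP, where 6.59% of all genes were higher and 7.04% lower in NELP, and 10.7% higher and 11.5% lower in ELP. Among fits that left out a wood library, the higher count in NELP fell most without NELP 1 or NELP 2 (4 each) or NELP 3 (5). That in ELP fell most without ELP 1 (6). The shares of all tested genes that passed in those fits are not given here, so these counts have no background beside them. Limma called 0 of them between NELP and ELP, where 3 had an unadjusted p under 0.05. That threshold took in 7.23% of all tested genes as higher and 9.12% as lower.

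Among the other sources of H2O2, the methanol oxidase Phlgi1_120749 had the highest level of all list genes. It had 10760, 9787 and 10917 RPKM in NELP, 5020, 7003 and 9810 RPKM in ELP, and 99.5 and 10342 RPKM in Glc. Glc 1 stood apart from all other libraries, and the gene passed in neither comparison (log2 fold change 3.36 in NELP and 2.79 in ELP, adjusted p = 0.13 and 0.18 by limma). Without Glc 1 the estimates were 0.019 in NELP and -0.56 in ELP. In contrast, Phlgi1_128606 was highest in Glc 1. A second methanol oxidase, Phlgi1_108516, passed as higher in NELP (log2 fold change 1.98) and ELP (1.58), as did the GMC oxidoreductase Phlgi1_128108 (2.50 and 2.65). The GMC oxidoreductase Phlgi1_121514 passed as lower (-0.94 and -0.72). Pyranose 2-oxidase, Phlgi1_130349, passed only in ELP (0.80, and 0.47 in NELP, where rescaling gave -0.11). Cellobiose dehydrogenase Phlgi1_99876, which oxidizes cellobiose released from cellulose, had 645, 618 and 546 RPKM in NELP, 453, 338 and 229 RPKM in ELP, and 9.84 and 14.5 RPKM in Glc.

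Among the peroxidases that use H2O2 and had values, transcript levels were mostly below those of the cro2-like pair. The dye-decolorizing peroxidase Phlgi1_122124 had no RPKM values here, so its level is not described. The study reports high protein levels for it, and higher transcripts on pine wood than on glucose. The lignin peroxidases Phlgi1_30372 and Phlgi1_121662 passed as higher in NELP (log2 fold changes 1.76 and 2.07), and Phlgi1_30372 and Phlgi1_150531 in ELP (1.45 and 1.87). Their levels were low, with means of 13.7 RPKM or less in each medium. Phlgi1_121662 had 17.5 RPKM in NELP 1, against 7.26 RPKM in NELP 2 and 6.83 RPKM in NELP 3. The study reports no high expression of class II peroxidases, the class that holds lignin and manganese peroxidases. The dye-decolorizing peroxidase Phlgi1_85295 averaged 41.7 RPKM in NELP, 147 RPKM in ELP and 11.4 RPKM in Glc and passed in both wood media. Phlgi1_71660 of the same family also passed as higher in both, whereas Phlgi1_125681 passed as lower in ELP. The manganese peroxidase Phlgi1_75566 and the generic peroxidase Phlgi1_32509 passed as higher in both, and the manganese peroxidase Phlgi1_115592 as lower in NELP. Among heme-thiolate peroxidases Phlgi1_18201 passed as higher in both and Phlgi1_131735 in ELP. Without any 1 library the calls of Phlgi1_99876, Phlgi1_108516, Phlgi1_128108 and Phlgi1_85295 were kept in both comparisons, and those of Phlgi1_32509 and Phlgi1_131735 in ELP, whereas the other calls of these lists were lost without at least 1 library. The calls of Phlgi1_115592, Phlgi1_75566 and Phlgi1_32509 in NELP, and of Phlgi1_121514 and Phlgi1_71660 in ELP, were lost without any of 7 of the 8 libraries. After rescaling the calls kept were those of Phlgi1_99876, Phlgi1_128108 and Phlgi1_121514 in both comparisons, of Phlgi1_108516 and Phlgi1_30372 in NELP, and of Phlgi1_85295, Phlgi1_125681 and Phlgi1_131735 in ELP, and the other calls of these lists were lost, among them Phlgi1_85295 in NELP and Phlgi1_108516 and Phlgi1_32509 in ELP.

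**Figure D4:**
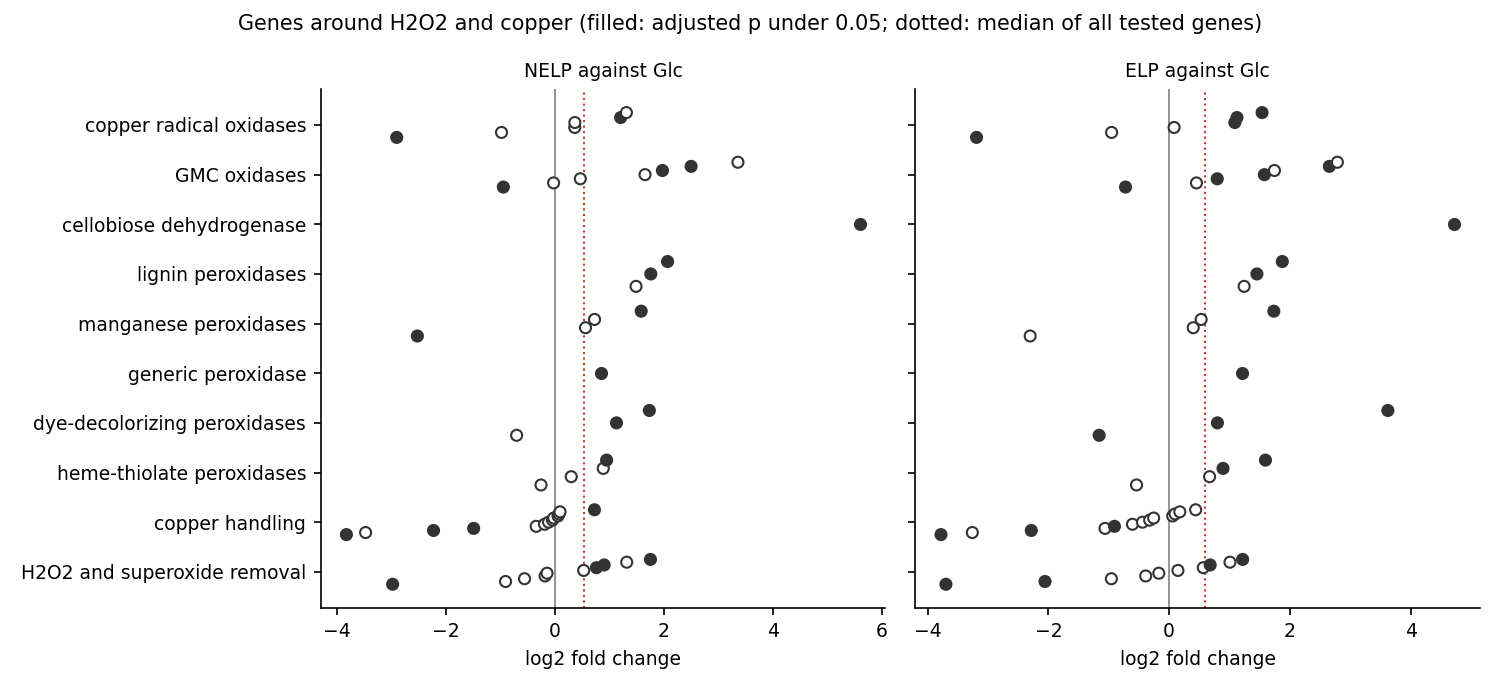
Log2 fold change (horizontal axis, deposited RPKM) of each tested gene in NELP relative to Glc and ELP relative to Glc, by list; filled circles passed at an adjusted p under 0.05 by limma and the dotted line is the median of all tested genes. The copper radical oxidases span -2.90 to 1.32 in NELP and -3.19 to 1.54 in ELP on this scale, where Phlgi1_327975 in NELP and Phlgi1_19348 in both media lie above 0 and turn below it after rescaling, and cellobiose dehydrogenase is highest at 5.60 and 4.72.

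Copper handling genes were examined because the enzymes need copper. The 13 genes hold Ctr copper transporters, which import copper, a copper-transporting ATPase, copper fist regulators, a chaperone, copper amine oxidases and small blue copper proteins. In NELP relative to Glc 1 was higher and 3 lower, in ELP 0 were higher and 3 lower, and in NELP relative to ELP 0 passed by limma. Beside these stand the 29.5% higher and 3.67% lower of all tested genes in NELP, and the 37.3% higher and 5.14% lower in ELP. At an unadjusted p under 0.05, 1 was higher and 3 lower in NELP relative to Glc, and 0 higher and 4 lower in ELP. Of all tested genes 41.4% were higher and 5.76% lower in NELP at this threshold, and 45.6% and 7.27% in ELP. Between NELP and ELP 1 gene differed, where 7.23% of all tested genes were higher and 9.12% lower. After rescaling 0 were higher in either wood medium, and 4 were lower in NELP and 6 in ELP. These included the lower calls named here but not Phlgi1_451232. The shares of all genes after rescaling were 6.59% higher and 7.04% lower in NELP, and 10.7% higher and 11.5% lower in ELP. The copper fist gene Phlgi1_451232 was the higher one in NELP (log2 fold change 0.73). The blue copper genes Phlgi1_479103 and Phlgi1_497415 were lower in NELP (-2.22 and -3.82) and in ELP (-2.28 and -3.78). The Ctr transporter Phlgi1_63716 was lower in NELP (-1.49, and -1.06 in ELP, which did not pass), and the copper amine oxidase Phlgi1_95823 was lower in ELP (-0.91, and -0.11 in NELP). The call of Phlgi1_451232 was lost without any single wood library or Glc 1 (adjusted p up to 0.12), and that of Phlgi1_63716 without NELP 2, NELP 3, ELP 2 or Glc 1 (up to 0.090). These genes and those of the next list were named after their values were seen.

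Of 10 genes for removal of H2O2 and superoxide, 3 were higher and 1 lower in NELP relative to Glc, and 2 higher and 2 lower in ELP relative to Glc. Among all tested genes 29.5% were higher and 3.67% lower in NELP, and 37.3% higher and 5.14% lower in ELP, so the share of higher genes in NELP was that of the background. The peroxiredoxin Phlgi1_94967, of a family that reduces peroxides, had 64.3, 88.0 and 85.0 RPKM in NELP, 53.7, 44.9 and 43.8 RPKM in ELP, and 2332 and 164 RPKM in Glc. Like Phlgi1_128606 it was lower in both wood media and highest in Glc 1 (log2 fold change -2.97 and -3.70). The peroxiredoxin Phlgi1_95619 was lower in ELP (-2.06, and -0.14 in NELP). The peroxiredoxin Phlgi1_91504 and the catalase Phlgi1_99700 were higher in NELP (0.77 and 0.91) and in ELP (1.22 and 0.68). Another catalase, Phlgi1_83711, had far higher levels and passed in neither comparison (1.32 and 1.01, adjusted p = 0.22 and 0.33 by limma). Phlgi1_83711 averaged 1576 RPKM in NELP, 1266 RPKM in ELP and 1098 RPKM in Glc, where the libraries had 197 and 1998 RPKM. The glutathione peroxidase Phlgi1_89284 was higher in NELP (1.76, and -0.17 in ELP). In NELP the calls of Phlgi1_94967, Phlgi1_89284 and Phlgi1_91504 were lost without any 1 of the NELP libraries (adjusted p up to 0.10, 0.15 and 0.12). The call of Phlgi1_94967 was also lost without any ELP library, that of Phlgi1_89284 without any ELP library or Glc 2, and that of Phlgi1_91504 without ELP 2, ELP 3 or Glc 1. That of Phlgi1_99700 was lost without NELP 1 or NELP 2 (up to 0.068). In ELP that of Phlgi1_99700 was lost without any single wood library or Glc 2 (up to 0.096). After rescaling 0 of the 10 were higher in either wood medium, and 1 was lower in NELP (Phlgi1_94967). In ELP 3 were then lower, Phlgi1_94967 and Phlgi1_95619 among them. The shares of all genes after rescaling were 6.59% higher and 7.04% lower in NELP, and 10.7% higher and 11.5% lower in ELP. Limma called 0 of the 10 between NELP and ELP, where 2 had an unadjusted p under 0.05. That threshold took in 7.23% of all tested genes as higher and 9.12% as lower.

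The transcripts whose profile over the 8 libraries was most like that of a member were sought, for members averaging 10 RPKM or more, among 1008 genes of such a level that carry a function name, by Pearson's r on the log2 scale. These coefficients describe profiles over libraries of 3 media and carry no test. They were computed on deposited RPKM without rescaling, so differences in scale between libraries enter them. The spread of r over the 1008 genes is not given here. For Phlgi1_128606 they were the polysaccharide lyase PL14 Phlgi1_28205 (r = 0.985), the GH10 xylanase-family gene Phlgi1_25162 (0.975) and the transporter Phlgi1_73402 (0.968). All 3 were highest in Glc 1 and second highest in Glc 2, as Phlgi1_128606 was. For Phlgi1_380490 the closest was the lignin peroxidase Phlgi1_150531 (r = 0.992), which had 12.0, 10.7 and 8.62 RPKM in NELP, 15.2, 14.2 and 11.7 RPKM in ELP, and 1.43 and 7.19 RPKM in Glc. Nearly as close were Phlgi1_130438, deposited as a flavin-containing amine oxidase (0.988), and Phlgi1_128251 with a CBM50 module (0.985).

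For the second cro2-like gene, Phlgi1_19348, the closest profiles were those of the class 3 lipase Phlgi1_105650 (r = 0.975), Phlgi1_116815 with a CBM48 module (0.956) and the terpenoid synthesis gene Phlgi1_367715 (0.943). For the cro1-like gene Phlgi1_453167 they were the vacuolar sorting protein Phlgi1_123054 (0.978), the cytochrome P450 Phlgi1_62450 (0.976) and the cap-binding protein Phlgi1_85942 (0.974). For the Cro6-like gene Phlgi1_327975 they were the prenyltransferase subunit Phlgi1_67839 (0.989), the GH20 gene Phlgi1_124478 (0.977) and Phlgi1_36745, deposited as an exportin (0.973). No 2 members shared a gene in these sets.

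The gene models next to the members were also measured. Of 13 neighbours 12 were tested, and 1 was higher and 0 lower in NELP relative to Glc, 6 were higher and 1 lower in ELP relative to Glc, and 0 passed between NELP and ELP by limma, where 2 had an unadjusted p under 0.05. Of all tested genes 29.5% were higher and 3.67% lower in NELP relative to Glc, and 37.3% higher and 5.14% lower in ELP. After rescaling 1 neighbour was higher and 0 lower in NELP, and 1 higher and 1 lower in ELP. The shares of all genes after rescaling were 6.59% higher and 7.04% lower in NELP, and 10.7% higher and 11.5% lower in ELP. At an unadjusted p under 0.05 in the deposited values, 3 neighbours differed in NELP relative to Glc and 8 in ELP. All tested genes at this threshold were 41.4% higher and 5.76% lower in NELP, and 45.6% higher and 7.27% lower in ELP. Between NELP and ELP the shares were 7.23% higher and 9.12% lower. Phlgi1_128606 lies 174 bp from the GH71 glycoside hydrolase Phlgi1_73558, which averaged 11.2 RPKM in NELP, 6.94 RPKM in ELP and 1.62 RPKM in Glc. That gene passed as higher in NELP (log2 fold change 2.71, adjusted p = 0.0074 by limma) and in ELP (2.07, adjusted p = 0.011 by limma), opposite in direction to Phlgi1_128606, and also after rescaling (2.28 and 1.59, adjusted p = 0.021 and 0.044). On its other side, at 1041 bp, Phlgi1_119442 had log2 fold changes of 0.60 and 0.80 (0.011 and 0.15 after rescaling).

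Certain members abut a neighbour. The protein kinase gene Phlgi1_513015 ends directly before Phlgi1_513029 and averaged 91.6 RPKM in NELP, 125 RPKM in ELP and 61.0 RPKM in Glc, above the level of Phlgi1_513029 in every library. Phlgi1_327952 starts 1 bp after Phlgi1_327975 and averaged 39.5 RPKM in NELP, 47.2 RPKM in ELP and 25.1 RPKM in Glc. Its media stood in the order of those of Phlgi1_327975. Whether reads of such neighbours entered the values of the members was not tested.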

How the data were processed

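The authors purified poly-A RNA from 3 NELP, 3 ELP and 2 Glc cultures and sequenced multiplexed Illumina libraries, processed with CASAVA 1.8.2 per the labels. The deposited RPKM were made by the authors with SeqNGen and QSeq from mapped reads, gene length and library size, and the sources used here do not say how they treated reads that fit several genes. No count table was used. Values entered limma 3.58.1 (R 4.3.3) as log2(RPKM + 0.5), for genes averaging 1 RPKM or more, in 1 fit over all libraries without a replicate block. Equal replicate numbers matched in part only, as their deviations correlated at 0.40, -0.15 and 0.50 between NELP and ELP. Results with a replicate block are given below. The fit gives a gene 1 spread for all media although Glc spread more, so p values relative to Glc may be too small. Mapped reads were inferred from the commonest value among the 30 lowest products of RPKM and RefSeq gene span in each library. That value was assumed to be 1 read on a gene without introns. Of 11892 models 11825, all 7 members included, matched RefSeq. Glc has 2 cultures. The p values measure only the spread between cultures of this experiment, pooled over the media and moderated across genes.

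Alternatives were pseudocounts of 1 and 0.1, no filter, a mean of at least 5 RPKM, rescaling by median ratio, a fit of the media compared alone, a replicate block, weights by medium, a variance trend with robust moderation, and leaving out each library. Named genes were the members, genes of the lists, the 3 most similar genes of each member averaging 10 RPKM or more, and neighbours. The rule for members reads annotation only, but the members and lists were chosen with earlier results of these data known. The fit was tested on simulated data that gave a gene 1 spread for all media and changed values in NELP only. That test therefore does not cover the wider spread in Glc.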

Additional observations from a re-analysis of the deposited data

How the results depend on the processing

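Of the changes of single members, that of Phlgi1_128606 relative to Glc passed under all 17 alternatives in both wood media. Counts of members called higher and lower in NELP relative to Glc were 1 and 1, and in ELP relative to Glc 3 and 1. Rescaling by median ratio changed them to 0 and 2 in both. A fit of only the media compared and weights by medium each left 0 higher in NELP and 0 higher in ELP, and called 1 member lower in NELP relative to ELP, against 0. A pseudocount of 1 and a minimum mean of 5 RPKM each called 2 members lower in ELP, and with no filter 2 were higher in ELP. Leaving out single libraries gave 0 to 3 higher and 1 to 2 lower in NELP, 0 to 3 higher and 1 to 2 lower in ELP, and 0 to 1 lower in NELP relative to ELP. Without a Glc library the spread comes from the wood libraries alone, the remaining Glc library being assumed to vary like them. The shares of all tested genes called are given for the main fit and after rescaling only. Under the other alternatives the counts of members, and those of the lists below, therefore have no background beside them and are not read as results about these genes.

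After rescaling Phlgi1_19348 stood at -0.23 in NELP and -0.58 in ELP, Phlgi1_327975 at -0.21 in NELP, pyranose 2-oxidase Phlgi1_130349 at -0.11 in NELP, and Phlgi1_513029 at 0.035 in NELP relative to ELP, and the copper fist gene Phlgi1_451232 at -0.21 in ELP. Over the fits that leave out a library, Phlgi1_19348 ranged from -0.12 to 0.86 in NELP (-0.41 to 0.57 in ELP), Phlgi1_327975 from -0.0093 to 0.75 in NELP, Phlgi1_513029 from -0.11 to 0.094 in NELP relative to ELP, Phlgi1_95823 from -0.31 to 0.088 in NELP, Phlgi1_95619 from -0.59 to 0.31 in NELP, Phlgi1_89284 from -1.08 to 0.74 in ELP, and the methanol oxidase Phlgi1_120749 from -0.56 to 6.13 in ELP, the lowest without Glc 1. After rescaling the mean summed RPKM was 451 for NELP (488 as deposited), 372 for ELP (420.0) and 2834 for Glc (1939), and as deposited that of Glc was 1130.5 without Glc 1 and 2749 without Glc 2. The order of members by medians was that by means in all media.

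For the 7 lists around H2O2, 10 higher and 2 lower in NELP became 4 and 1 after rescaling, 3 and 0 when only 2 media were fitted, and 1 and 0 with weights by medium. The 2 lower became 1 with a pseudocount of 0.1 and 1 with no filter. In ELP, 12 higher and 2 lower became 4 higher after rescaling, 5 and 0 when only 2 media were fitted, and 1 and 0 with weights by medium. Leaving out single libraries gave 4 to 16 higher and 0 to 3 lower in NELP, and 6 to 16 higher and 0 to 2 lower in ELP. Between NELP and ELP, 0 became 1 lower with only those media compared, 1 higher and 1 lower with weights by medium, and 0 to 1 lower without single libraries.

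For the copper handling genes, 1 higher in NELP became 0 when rescaled, when only 2 media were fitted and with weights by medium, and 3 lower became 0 in NELP and 0 in ELP with weights by medium and 6 in ELP after rescaling. Between NELP and ELP 1 was called higher with only those media compared and 1 with weights by medium. Without single libraries there were 0 to 1 higher and 2 to 5 lower in NELP, 0 to 2 higher and 3 to 5 lower in ELP, and 0 to 1 higher in NELP relative to ELP. For removal of H2O2 and superoxide, 3 higher in NELP became 0 when rescaled, when only 2 media were fitted and with weights by medium, and 1 lower became 0 with no filter, with only the media compared and with weights by medium. In ELP 2 higher became 0 after rescaling, 1 with only the media compared and 0 with weights by medium, and 2 lower became 1 and 0 under the last 2 settings. Between NELP and ELP 3 were higher with only those media compared and 2 with weights by medium. Without single libraries there were 0 to 3 higher and 0 to 3 lower in NELP, 1 to 2 higher and 2 to 4 lower in ELP, and 0 to 3 higher in NELP relative to ELP.

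Replicate numbers pair cultures only by number. Deviations of equal numbers from their medium correlated at 0.40, -0.15 and 0.50 between NELP and ELP, at -0.16 and -0.20 between NELP and Glc, and at 0.09 and 0.20 between ELP and Glc. With the replicate block the member counts stayed at 1 higher and 1 lower in NELP and 3 higher and 1 lower in ELP, and Phlgi1_19348 stood at -0.026 in ELP. The block left 0 of the H2O2 lists lower in NELP and 1 in ELP, 0 copper handling genes higher in NELP, and for removal of H2O2 and superoxide 1 higher and 0 lower in NELP and 1 higher in ELP. Low reads limit Phlgi1_118353, and the cause of the spread in Glc was not tested.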
